A study of Mus musculus with 24 samples.

Results

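The Notch receptors, ligands and targets examined here were 10 genes: the 4 receptors Notch1, Notch2, Notch3 and Notch4, the 3 ligands Jag1, Jag2 and Dll1, and the 3 target genes Hes1, Hey1 and Nrarp. They were chosen by name as members of the pathway, by no threshold on a measured value, and each matched 1 Ensembl identifier among the 63862 genes of the expression tables of mouse lacrimal gland (LG) and of lacrimal gland stem cell (LGSC) spheres. All 10 were found, and 47 further genes of the pathway were described beside them. In a separately processed sphere library 6 of the 10 were listed at far higher levels, while the ligand Jag2 and the targets Hey1 and Nrarp were not. Such gaps were common, since 50.55% of all genes at 10 FPKM or more in that library were under 0.1 of it at day 7. The receptor Notch4 was itself too low in that library, at 0.115 FPKM, for this check to bear on it, so whether its listed levels are complete is not known. Hey1 was low there too, at 1.21 FPKM. The check was made with day 7 spheres only and cannot show that levels in tissue are complete. Most of the account concerns Notch4, Jag2, Hey1 and Nrarp.

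In Notch signaling a transmembrane ligand on one cell, of the Jagged or Delta family, binds a receptor on its neighbor. The receptor is then cut by an ADAM protease and by gamma-secretase, and its intracellular domain enters the nucleus, joins the DNA-binding protein RBPJ and a Mastermind coactivator, and turns on target genes, among them the HES and HEY repressors and Nrarp, which encodes a feedback inhibitor of the complex. In glands the pathway is best known for the choice between ductal, basal and secretory fates, and in blood vessels, which run through every gland, for the specification of arteries, where NOTCH4 is found on endothelial cells and NOTCH3 on the mural cells around them.

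All samples came from C57BL/6 mice, and the labels name no transgene in any group. Embryonic LG was taken at E17.5 and at E19.5 (embryonic days, 3 libraries each) and LG of adult animals gave 3 libraries, with no further age given in the labels. LGSC spheres were grown in Matrigel from dissociated LG of mice of 6 to 8 weeks, in a serum-free medium that all sphere groups share and that contains EGF, FGF10, Wnt3A and the ROCK inhibitor Y-27632, and were collected at passage 2 on culture day 5 (2 libraries) and on days 7, 10 and 14 (3 libraries each). 1 library of passage 10 spheres at day 7 was compared by value only, and the remaining day 5 library as well as the passage 6 and passage 20 samples were not analysed here. The labels do not say whether replicates were separate animals or cultures, so p-values measure the spread between these libraries, which may be technical.

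The values are FPKM (fragments per kilobase of gene length and per unit of library size), and the reads behind them could be recovered from their steps: 7094206 to 9512372 per library in the 20 passage 2 and tissue libraries. In adult LG the 10 most abundant genes held 59.8% and 59.9% of the reads in replicates 1 and 2 and 32.0% in replicate 3, against at most 7.84% in any other library. The acinar markers, summed over 6 genes, reached 451 to 716 FPKM in adult LG and at most 0.356 in embryonic LG. In spheres the endothelial markers, summed over 8 genes, reached at most 0.511 FPKM and the fibroblast markers, summed over 6 genes, at most 1.41, and the epithelial markers, summed over 6 genes, lay between 595 and 2718. This epithelial sum came from Cdh1 and Krt18, at 616 and 671 FPKM on average at day 7, while Epcam, Krt8 and Cldn4 were listed at 0 in the 3 day 7 libraries.

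The sequence tables held promoters for 8 of the 10 genes and none for Hes1 and Hey1. Those of Nrarp, Jag2 and Notch4 are shown, since these carry the differences described further on. Each run is the 250 bases before the annotated start on the strand of the gene, from RefSeq on GRCm38.p6, and capitals mark a match to CACGTG, a palindromic E-box that HEY proteins can bind. Nrarp lies at chr2:25180508-25180757 on the plus strand, Jag2 at chr12:112929496-112929745 on the minus strand and Notch4 at chr17:34564045-34564294 on the plus strand.
Nrarp: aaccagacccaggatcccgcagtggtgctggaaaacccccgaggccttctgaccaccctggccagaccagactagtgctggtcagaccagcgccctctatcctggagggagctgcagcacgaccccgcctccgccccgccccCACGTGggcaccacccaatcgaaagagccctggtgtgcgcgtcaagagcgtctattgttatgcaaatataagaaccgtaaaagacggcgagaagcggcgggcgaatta
Jag2: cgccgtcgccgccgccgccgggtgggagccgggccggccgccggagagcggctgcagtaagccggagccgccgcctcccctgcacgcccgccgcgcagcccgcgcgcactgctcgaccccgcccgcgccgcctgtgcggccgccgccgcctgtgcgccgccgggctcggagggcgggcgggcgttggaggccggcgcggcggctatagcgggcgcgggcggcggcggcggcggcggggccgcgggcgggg
Notch4: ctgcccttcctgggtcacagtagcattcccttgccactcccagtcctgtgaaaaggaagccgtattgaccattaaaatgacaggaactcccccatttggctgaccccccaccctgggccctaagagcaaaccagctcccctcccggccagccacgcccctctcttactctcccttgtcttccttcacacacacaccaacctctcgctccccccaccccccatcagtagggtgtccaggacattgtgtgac
The Nrarp run holds 1 CACGTG, which begins 108 bases before the start, and the motif is present in 6.02% of 32851 promoter windows of this length. The other motif searched, GTGGGAA, the core bound by RBPJ, was found on neither strand in the windows of the 8 genes and is present in 5.42% of all windows. The motifs can share the letters GTG where CACGTG is followed by GGAA, which is not the case in the Nrarp run. The Jag2 window is 87.2% G and C, that of Nrarp 61.2% and that of Notch4 58.4%.

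The levels listed for many genes in the 20 libraries were far below those in the passage 10 library, whose table was made on another gene list (52747 genes, without the 11226 assembled loci of the other tables). Of 5333 genes at 10 FPKM or more in the passage 10 library, 2696 (50.55%) had a mean at day 7 of passage 2 under 0.1 of that level, and 577 were listed at 0 in all 20 libraries. In the opposite direction, of 3271 genes at 10 FPKM or more at day 7, 51 were under 0.1 of it in the passage 10 library. Gapdh, which every cell uses, was listed at 0 in all 20 libraries and at 3.001 FPKM in the passage 10 library, Epcam of epithelial cells at 0 and at 261, and Krt14, a marker of the basal cells of the gland, stood at 11.3 FPKM on average at day 7 against 7065 in the passage 10 library. With at least 1 FPKM there, 2 of 6 housekeeping genes were under 0.1 of it. So were 3 of 6 epithelial and 3 of 6 basal and myoepithelial markers. Others of these lists were higher at day 7, such as Actb (529.5 against 478.8), Cdh1 (615.8 against 168.9) and Krt17 (3220 against 1668). Gapdh was low in the passage 10 library as well, so levels there may not be complete either. Passage and processing cannot be told apart in this comparison, which has 1 library on one side.

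6 of the 10 Notch genes, 9 of which were at 1 FPKM or more in the passage 10 library, were under 0.1 of their level there at day 7. At the floor of 10 FPKM used above for all genes, 5 of 6 Notch genes were, beside 50.55% of all genes. No share of all genes was taken at 1 FPKM. Among the receptors, Notch1 stood at 0.593 ± 0.277 FPKM (SD, n = 3) against 49.3, Notch2 at 0, 0.0119 and 0.0104 against 10.5, and Notch3 at 0 in each library against 28.8. Among the ligands, Jag1 stood at 2.94 ± 0.299 against 82.5 and Dll1 at 0.0256, 0 and 0.0265 against 7.99. The target Hes1 was at 0 in each library against 119. These 6 genes therefore include the highest receptor, ligand and target of the passage 10 library.

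The other 4 were not under 0.1 of their passage 10 level at day 7. Jag2 stood at 48.2 ± 24.8 FPKM against 52.3, Nrarp at 25.7 ± 14.3 against 7.88 and Hey1 at 7.24 ± 4.88 against 1.21. Notch4 stood at 0.365 ± 0.218 against 0.115, a level at which the comparison cannot show missing reads. Of the 47 further pathway genes, 11 of the 16 with at least 10 FPKM in the passage 10 library were under 0.1 of it. Beside them stand 50.55% of all genes at that floor. With at least 1 FPKM there it was 18 of 35, a floor at which no share of all genes was taken. As a description only, the 18 genes included 7 of the 9 of the nuclear complex, among them the coactivators Maml1, Maml2 and Maml3. Rbpj itself stood at 5.87 against 5.33.

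**Figure D1:**
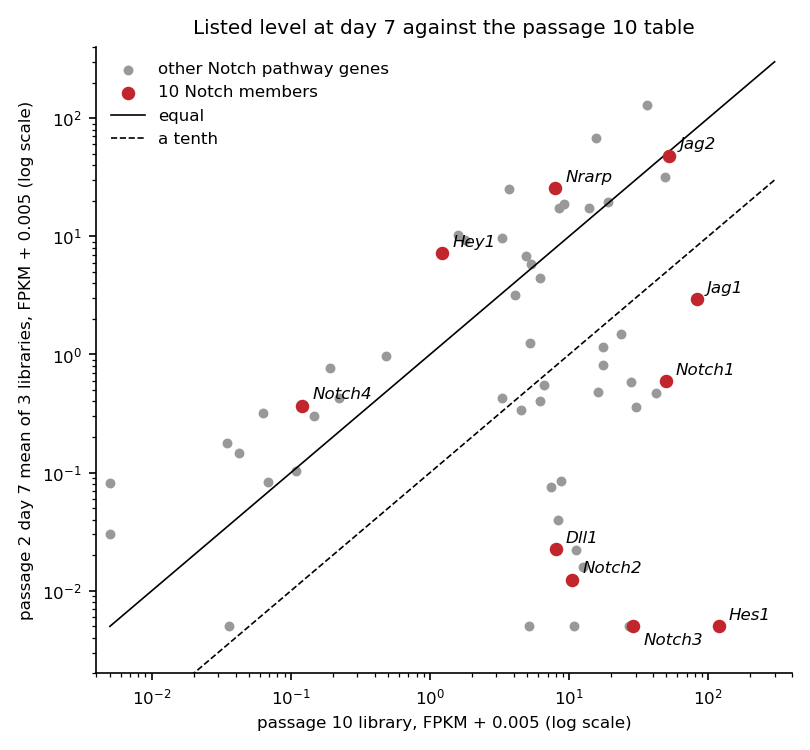
Mean FPKM of the 3 passage 2 day 7 libraries (vertical) against FPKM in the 1 passage 10 library (horizontal), both plus 0.005 on log axes, for the 10 Notch genes (red) and the other pathway genes (grey). The solid line marks equal levels and the dashed line 0.1 of it, below which 6 red points lie, with Notch3 and Hes1 at the floor, while Jag2 lies on the solid line and Notch4, Hey1 and Nrarp above it.

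Notch3 and Hes1 were thus listed at 0 in all 20 libraries, where nothing can be read of their expression. Notch2 was at 0 in 12 libraries and reached 3 reads in the highest, and Dll1 was at 0 in 5 libraries and reached 6 reads. Notch1 rested on 2 to 115 reads and Jag1 on 0 to 167. The 4 remaining genes rested on 9 to 1580 reads (Notch4), 119 to 4436 (Jag2), 23 to 759 (Hey1) and 17 to 1000 (Nrarp). Reads of a gene and of an overlapping gene on the opposite strand cannot be told apart without strand, and such a gene overlaps Notch4 (Gm20462) and Nrarp (Gm38287) in GENCODE M21. Jag2 holds the microRNA gene Mir6941 on its own strand, and no gene of that annotation overlaps Hey1. Overlap with the assembled loci, for which no coordinates are given, could not be checked.

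The first question was how the genes differ between embryonic and adult LG. Of the 10 genes 4 averaged 0.5 FPKM or more over the 9 tissue libraries, which was the filter for a test. Of these 4, Jag2 and Nrarp were higher at E17.5 than in adult LG by limma on log2(FPKM + 1), and none was lower. Over all 18578 genes tested, 54.0% passed the same threshold, 29.1% higher and 24.9% lower at E17.5, so that 2 of 4 is a share near the background. With each library scaled to its own recovered reads the share of higher genes among those called went from 53.8% to 83.1%, and 3 of the 4 genes were higher, Hey1 being the third, where 61.4% of all genes passed. Between E19.5 and adult LG the same 2 genes were higher and none lower, where 54.2% of all genes passed, 30.3% higher and 23.9% lower, and the share of higher genes went from 55.9% to 83.3% on own reads. Groups that do not overlap were found for 59.5% of genes at E17.5 and 58.8% at E19.5 against adult LG. Between E19.5 and E17.5 LG none of the 4 passed, where 1.74% of all genes did (323 genes by limma, 490 by limma-voom, and 2841 or 15.3% at an unadjusted p under 0.05). Both comparisons with adult LG use the same 3 adult libraries. The RNA is from whole glands, in which fewer cells of a type and less RNA per cell cannot be told apart.

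Notch4 was the only receptor that could be tested in tissue. Its gene spans chr17:34564268-34588503 on the plus strand (GRCm38). It stood at 7.45, 6.18 and 5.57 FPKM in the E17.5 libraries, at 9.90, 9.60 and 7.00 at E19.5, and at 6.63, 9.51 and 25.7 in adult LG. Adult replicate 3 was far above the other libraries, and replicates 1 and 2 lay among the embryonic values. The log2 fold change of E17.5 over adult LG was -0.81 ± 0.41 (SE, limma adjusted p = 0.124), with a 95% interval of -1.74 to 0.12, and that of E19.5 was -0.40 ± 0.41 (adjusted p = 0.43).

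The outcome for Notch4 depended on the adult libraries. Without adult replicate 1 it passed as lower at E17.5 (-1.19, adjusted p = 0.0284), and without replicate 3 it stood at -0.28 (adjusted p = 0.246). Without replicates 1 and 2, where the lone adult library was assumed to vary like the others, it passed at both stages (-1.86, adjusted p = 0.00136, and -1.45, adjusted p = 0.00358). With every library scaled to its own recovered reads instead, the fold change turned to 0.12 for E17.5 and to 0.42 for E19.5.

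The summed level of the 8 endothelial markers moved with Notch4 across the adult libraries. It was 82.3, 109 and 284 FPKM in adult replicates 1, 2 and 3, and lay between 179 and 218 at E17.5 and between 245 and 312 at E19.5. In each of these 9 libraries 5 of the 8 markers were at 1 FPKM or more, while Pecam1, Kdr and Esam were below it. The rise over adult replicates 1, 2 and 3 was not particular to endothelial markers. Fibroblast markers summed to 119, 190 and 281 FPKM, epithelial to 773, 857 and 1106, and basal and myoepithelial to 158, 170 and 721. Mural markers were highest in replicate 3 (16.1, 15.8 and 37.3), and acinar markers fell (716, 635 and 451). The part of endothelial content in the level of Notch4 was not tested. Dll4, a ligand of endothelial cells, stood at 4.17, 4.04 and 3.02 FPKM at E17.5, at 7.84, 7.74 and 6.09 at E19.5 and at 4.52, 5.32 and 19.3 in adult LG, and did not pass in either comparison with adult LG (adjusted p = 0.107 and 0.83).

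Of the remaining receptors, Notch1 had 0.361, 0.401 and 0.421 FPKM at E17.5, 0.104, 0.141 and 0.0896 at E19.5, and 0.0583, 0.0887 and 0.129 in adult LG. These levels, of 2 to 55 reads, were below the filter and were not tested. The E17.5 values lay above the adult ones, a comparison in which groups did not overlap for 59.5% of the genes tested. Notch1 is among the genes under 0.1 of their passage 10 level at day 7. Notch2 was at 0 in 6 of the 9 tissue libraries.

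Jag2, the highest in tissue of the 3 ligands Jag1, Jag2 and Dll1, spans chr12:112907819-112929776 on the minus strand. It stood at 33.5, 34.5 and 38.2 FPKM at E17.5, at 34.5, 34.2 and 35.5 at E19.5, and at 7.08, 10.1 and 27.0 in adult LG. The embryonic libraries lay within a narrow range, and all 6 were above the highest adult library. For E17.5 over adult LG the log2 fold change was 1.42 ± 0.39 (adjusted p = 0.0138), 2.67-fold, and for E19.5 it was 1.39 ± 0.39 (adjusted p = 0.0149), 2.63-fold.

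Adult replicates 1 and 2 carried much of the size of this difference. Without them the fold change of Jag2 was 0.38 at E17.5 and 0.35 at E19.5, still past the threshold (adjusted p = 0.0169 and 0.0216), and without replicate 3 it was 1.94 and 1.91. Without adult replicate 2 alone the call at E19.5 was lost (1.25, adjusted p = 0.0512). Scaled to own reads it was 2.35 and 2.22, on a scale where the median of all genes moved from 0.053 to 0.68 for E17.5 and from 0.089 to 0.63 for E19.5.

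Jag1 and Dll1 were low in tissue and were not tested there. Jag1 stood at 0.375, 0.214 and 0.257 FPKM at E17.5, at 0.334, 0.267 and 0.175 at E19.5, and at 0, 0.108 and 0.113 in adult LG, so that all embryonic values were above the adult ones. These comparisons had groups that do not overlap for 59.5% and 58.8% of the genes tested. Dll1 reached 0.0592 to 0.123 FPKM at E17.5, 0.105 to 0.181 at E19.5 and at most 0.0748 in adult LG, from 0 to 6 reads.

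Among the targets, Nrarp differed least between the adult libraries. The gene spans chr2:25180758-25183339 on the plus strand. It stood at 9.01, 9.48 and 10.5 FPKM at E17.5, at 11.2, 11.6 and 9.38 at E19.5, and at 2.73, 2.81 and 3.76 in adult LG. Each embryonic library was above each adult one, and adult replicate 3 lay close to the other 2.

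Nrarp had a fold change over adult LG of 1.39 ± 0.15 for E17.5 (adjusted p = 1.03e-04), 2.61-fold, and of 1.52 ± 0.15 for E19.5 (adjusted p = 7.07e-05), 2.87-fold. It lay between 1.16 and 1.63 with adult replicates left out singly or in a pair, and at 2.09 and 2.13 when scaled to own reads. With all 20 libraries in 1 fit, where the wide spread of the spheres enters the estimate of error, the call at E17.5 was lost (adjusted p = 0.0537).

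Hey1, the transcriptional repressor, spans chr3:8663359-8667256 on the minus strand. It stood at 14.4, 16.2 and 15.5 FPKM at E17.5, at 13.6, 15.6 and 15.5 at E19.5, and at 2.92, 6.18 and 17.7 in adult LG. Adult replicate 3 was above every embryonic library, and the other 2 below all of them. The fold change was 1.02 ± 0.47 for E17.5 (adjusted p = 0.0954) and 0.98 ± 0.47 for E19.5 (adjusted p = 0.108), with intervals of -0.045 to 2.09 and -0.089 to 2.04.

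Hey1 passed as higher in the embryo without adult replicate 3 (1.62, adjusted p = 4.86e-04, and 1.58, adjusted p = 5.87e-04) and when scaled to own reads (1.83, adjusted p = 0.0302, and 1.68, adjusted p = 0.0437). Without adult replicates 1 and 2 it stood at -0.19 and -0.23. Its direction therefore rested on which adult libraries entered. Its relative Heyl, at 4.03 to 4.51 FPKM at E17.5, 3.37 to 4.94 at E19.5 and 0.649, 0.493 and 2.33 in adult LG, was higher at both stages (1.38, adjusted p = 0.00376, and 1.34, adjusted p = 0.00453).

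**Figure D2:**
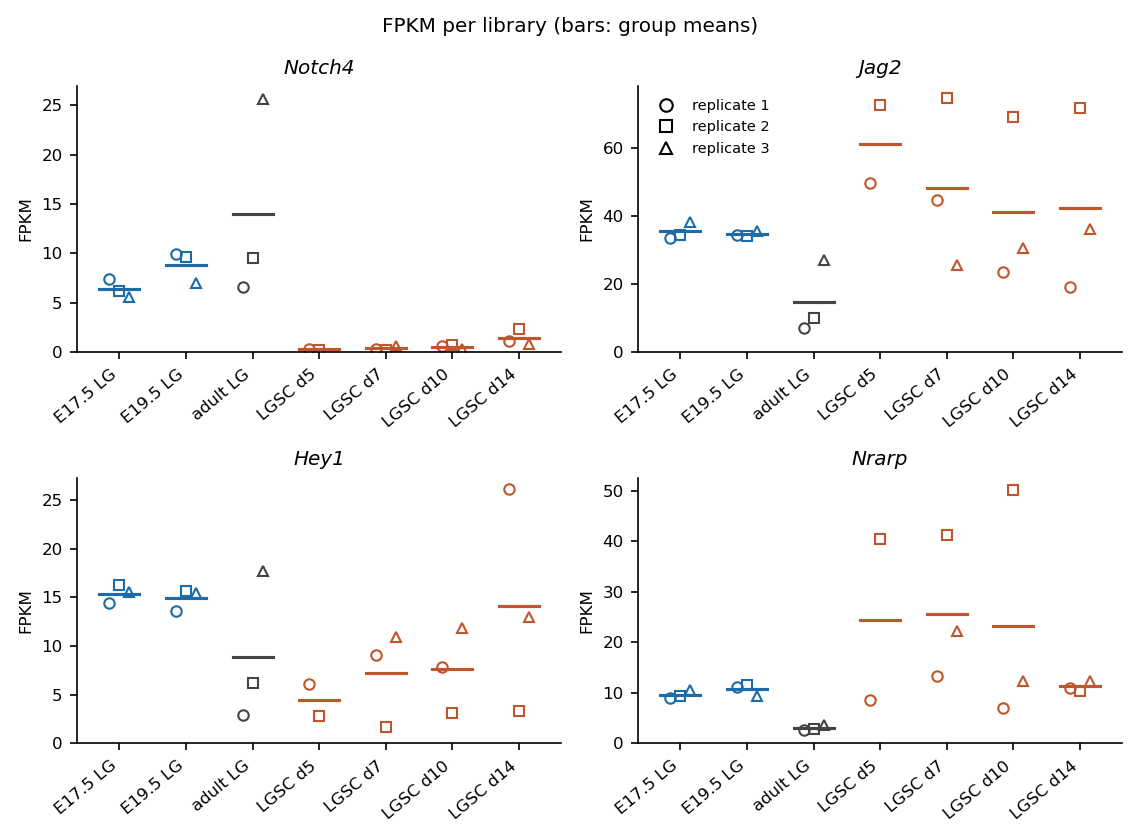
FPKM per library (vertical, linear from 0) for Notch4, Jag2, Hey1 and Nrarp in the 7 groups of LG and LGSC spheres, with marker shapes for the replicate numbers of the labels and a bar at each group mean. Adult replicate 3 (triangle) stands above the other 2 for Notch4, Jag2 and Hey1, Notch4 is at most 2.29 FPKM in every sphere library, and sphere replicate 2 (square) is highest for Jag2 and lowest for Hey1 at every day.

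A ratio of 2 genes within a library does not depend on how the library was scaled. The level of Jag2 over that of Notch4 was 1.07, 1.06 and 1.05 in the 3 adult libraries, in which Jag2 ranged from 7.08 to 27.0 FPKM and Notch4 from 6.63 to 25.7. It was 4.50, 5.58 and 6.86 in the E17.5 libraries and 3.48, 3.56 and 5.06 in those of E19.5. The embryonic ratios all lay above the adult ones, and those of the 11 sphere libraries, at 17.7 to 441, above the embryonic ones. The sphere ratios rest on low levels of Notch4, of 9 to 164 reads. No share over other pairs of genes was taken, so the ratios are a description. The ratio of Hey1 over Nrarp was 1.07, 2.20 and 4.70 in adult LG and 1.22 to 1.71 in the embryonic libraries, so that these groups overlapped.

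Of the 47 other pathway genes, 32 could be tested in tissue. At E17.5 12 were higher and 6 lower than in adult LG, and at E19.5 13 were higher and 5 lower. These 18 of 32 are 56.2% in each comparison, near the 54.0% and 54.2% of all genes that passed. The median fold change of the 32 was 0.094 and 0.030, beside 0.053 and 0.089 over all genes, and that of the 4 Notch genes tested was 1.20 and 1.18. Dlk1, a non-canonical Delta-like protein of embryonic mesenchyme and progenitors, had the largest difference, at 304 to 478 FPKM at E17.5, 329 to 363 at E19.5 and at most 0.44 in adult LG (8.31 ± 0.19, adjusted p = 5.34e-08, at E17.5).

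The other rises named by size were Neurl1a, an ubiquitin ligase that acts on ligands (2.34 ± 0.17 at E17.5), Aph1b, a subunit of gamma-secretase (2.07 ± 0.26) and Dtx3 (1.72 ± 0.21). In adult LG Dlk1, Neurl1a and Dtx3 averaged 0.227, 0.402 and 0.211 FPKM, under the filter. They were tested only through the embryonic groups, and their calls are given as a description. Rbpj, the DNA-binding partner of the receptors, stood at 11.9 ± 0.436 FPKM at E17.5, 11.7 ± 0.777 at E19.5 and 4.35 ± 1.32 in adult LG and was higher at both stages (1.30, adjusted p = 4.00e-04, and 1.27, adjusted p = 4.89e-04). The largest falls were Psen2, a catalytic subunit of gamma-secretase (-1.82 ± 0.17), the convertase gene Furin (-1.63 ± 0.19), Dtx3l (-1.01 ± 0.23) and Psenen (-0.68). Furin and Dtx3 are among the genes under 0.1 of their passage 10 level. Between E19.5 and E17.5 none of the 32 passed, and 4 did without adult replicate 3, where 9.43% of all genes passed. Fibroblast markers moved with stage as well, with a sum of 2709 to 3209 FPKM in the 6 embryonic libraries and 119 to 281 in adult LG, and their part in these differences was not tested.

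**Figure D3:**
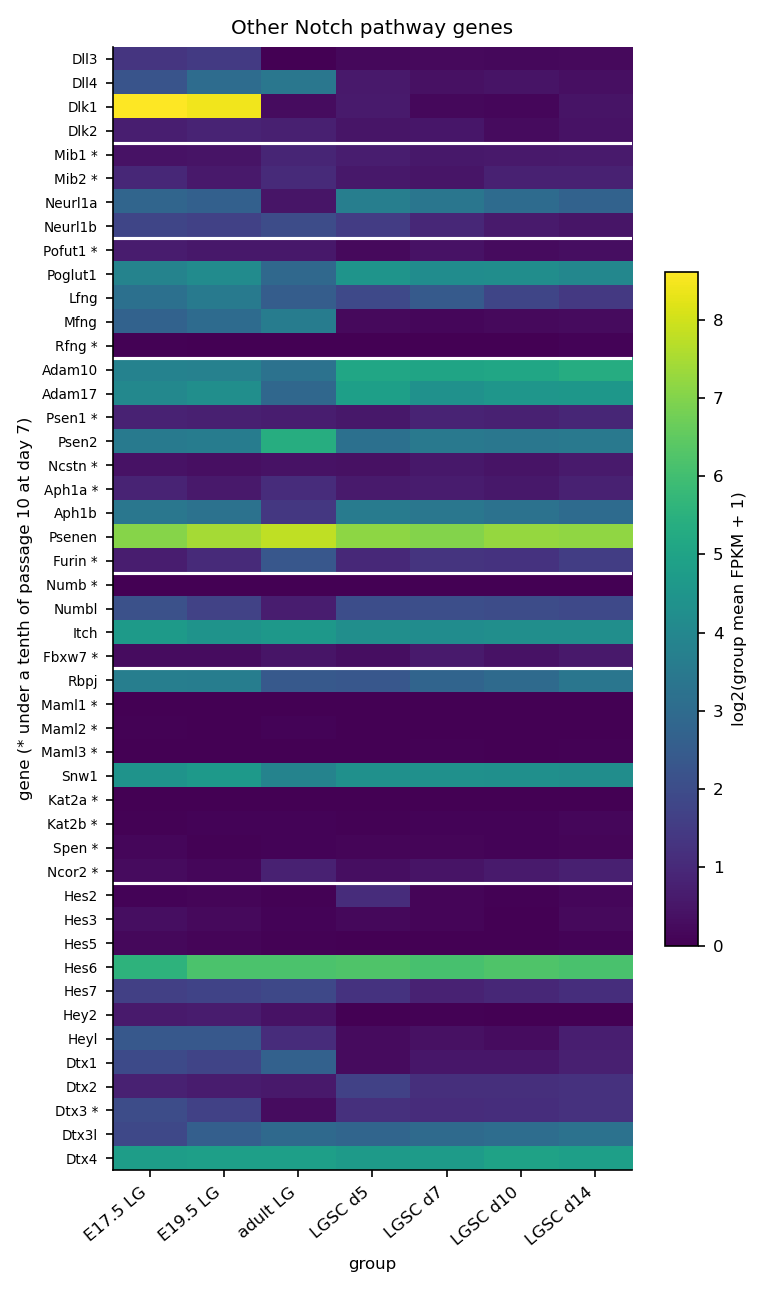
Color scale of log2(group mean FPKM + 1) for the 47 other pathway genes (rows, grouped by white lines into ligands, ligand handling, glycosylation, proteases, turnover, nuclear complex, and targets with Deltex genes) in the 7 groups (columns). A star marks the 18 genes under 0.1 of their passage 10 level at day 7, Dlk1 is bright only in the 2 embryonic groups, and Mfng, Dll4 and Heyl darken from tissue to spheres.

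The next question was how spheres differ from the gland. Day 7, the day on which the spheres are passaged, was compared with adult LG and with E17.5 LG in separate fits that share the 3 day 7 libraries. Of 5 genes tested in each, Jag1 and Nrarp were higher and Notch4 was lower at day 7 in both. Jag1 averaged under 0.3 FPKM in each tissue group and Notch4 0.365 at day 7, so each passed the filter only through the group where it is high and had to differ, and their calls are given as a description. Nrarp was above the filter in all these groups, and its libraries did not overlap in either comparison. Against adult LG 35.2% of 17698 genes passed, 14.2% higher and 21.1% lower, with groups that do not overlap for 52.4%, and against E17.5 LG 47.6% of 17391 genes, 18.1% higher and 29.6% lower, with groups that do not overlap for 59.6%. On own reads the share of higher genes among those called against adult LG went from 40.2% to 77.9%, and Notch4 (-2.30), Jag1 (1.997) and Nrarp (3.37) kept their direction and call.

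Notch4 was at 0.295, 0.190 and 0.609 FPKM at day 7, below all 9 tissue libraries. The fold change was -3.25 ± 0.47 against adult LG (adjusted p = 0.00318) and -2.44 ± 0.17 against E17.5 LG (adjusted p = 8.83e-05). On this scale the change of a gene near 0 is understated, and limma-voom on recovered reads gave -5.10 and -4.13. The 11 sphere libraries had 0.165 to 2.29 FPKM, and the lowest tissue library had 5.57. The share of all genes that separate spheres from tissue in this way is not given here, so this is a description.

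The endothelial markers were near 0 in the same libraries: their sum was 0.0229, 0.357 and 0.0416 FPKM at day 7 and at most 0.511 in any sphere library, with none of the 8 at 1 FPKM. Kdr was listed at 0 in all 11, but it averaged only 0.0687 FPKM at E17.5, 0.0248 at E19.5 and 0.192 in adult LG. Cdh5, the endothelial cadherin, had 60.4 to 80.6 FPKM at E17.5 and at most 0.0351 in spheres. Dll4 and the glycosyltransferase gene Mfng fell with Notch4. Dll4 had 0.28, 0.266 and 0.348 FPKM at day 7 (-2.78 ± 0.50 against adult LG and -1.86 ± 0.14 against E17.5), and Mfng 0.038, 0.18 and 0.0787 (-3.36 ± 0.37 and -2.56 ± 0.18).

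Jag1 stood at 3.003, 2.61 and 3.2 FPKM at day 7, well above the tissue values of at most 0.375. The fold change was 1.87 ± 0.17 against adult LG (adjusted p = 7.05e-04) and 1.62 ± 0.12 against E17.5 LG (adjusted p = 1.28e-04), and 5.17 and 3.50 by limma-voom. The 11 sphere libraries had 0.531 to 3.2 FPKM, above these tissue values, which is a description as for Notch4. Jag1 is among the genes under 0.1 of the passage 10 level, and its tissue levels come from tables of the same kind.

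Jag2 stood at 44.5, 74.7 and 25.5 FPKM at day 7. Replicate 3 was under the highest adult library and under all E17.5 libraries, and replicate 2 was above every tissue library. The fold change was 1.73 ± 0.57 against adult LG (adjusted p = 0.0557), with an interval of 0.37 to 3.09, and 0.31 ± 0.36 against E17.5 LG (adjusted p = 0.513), with an interval of -0.57 to 1.19. Against adult LG it passed by limma-voom (1.84, adjusted p = 0.0479), scaled to own reads (2.76, adjusted p = 0.0218), in the fit of all 20 libraries (adjusted p = 0.0112) and without adult replicate 3 (2.25, adjusted p = 0.0142), and without adult replicates 1 and 2 it was 0.69 (adjusted p = 0.542).

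Nrarp stood at 13.3, 41.4 and 22.3 FPKM at day 7, above all tissue libraries. The fold change was 2.57 ± 0.40 against adult LG (adjusted p = 0.00438), 5.93-fold, and 1.18 ± 0.38 against E17.5 LG (adjusted p = 0.0419), 2.27-fold. Without adult replicates 1 and 2 the former was 2.35 and no longer passed (adjusted p = 0.136). The latter was lost without any 1 of the E17.5 libraries (adjusted p from 0.0981 to 0.118), without day 7 replicate 3 (0.0911), with no filter on low values (0.0671) and in the fit of all 20 libraries (0.122).

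Hey1 stood at 9.03, 1.72 and 10.98 FPKM at day 7. These values lay within the range of adult LG except for replicate 2, which was lower, and below all E17.5 libraries. The fold change was -0.23 ± 0.75 against adult LG (adjusted p = 0.834), with an interval of -2.04 to 1.58 and a sign that turned on own reads (0.67), and -1.25 ± 0.55 against E17.5 LG (adjusted p = 0.109). Without day 7 replicate 2 the change against E17.5 LG was -0.58 and passed (adjusted p = 0.00892).

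**Figure D4:**
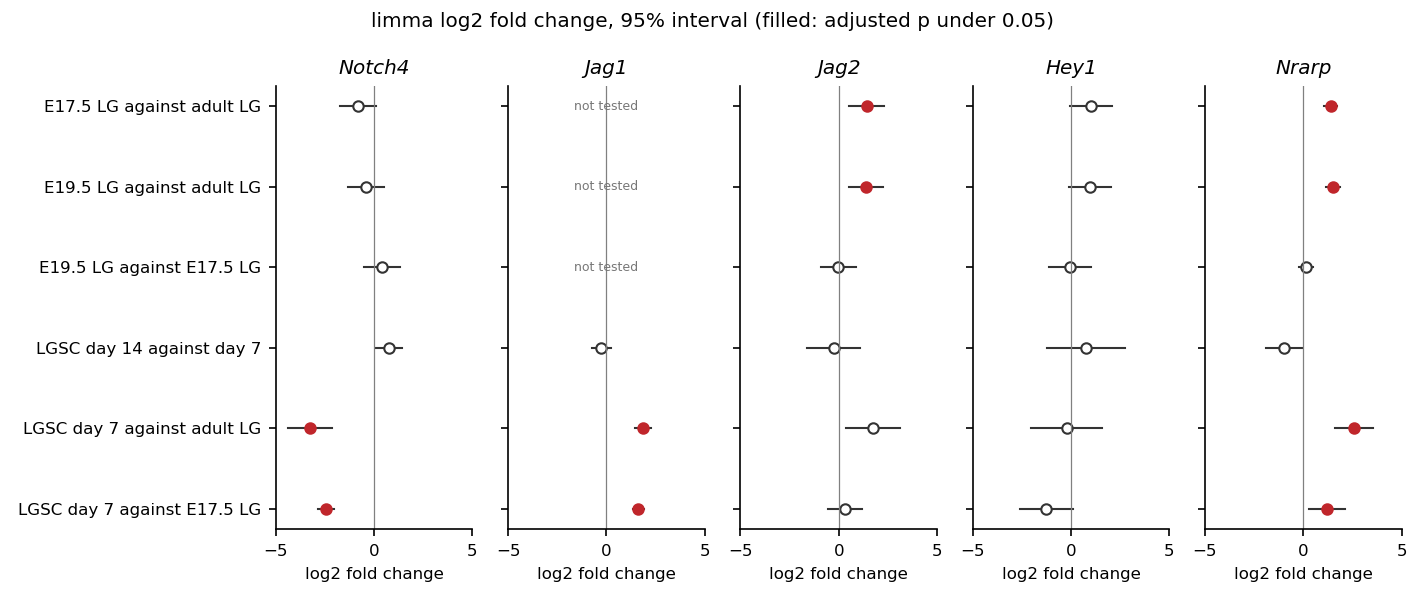
Log2 fold change by limma on log2(FPKM + 1) (horizontal) for 5 Notch genes in 6 comparisons (rows), with lines for 95% intervals and filled points for an adjusted p under 0.05. Nrarp and Jag2 are filled to the right in both embryonic comparisons with adult LG, Notch4 is filled to the left and Jag1 and Nrarp to the right in both comparisons of day 7 spheres with tissue, and no point is filled between stages of the embryo or between day 14 and day 7.

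Among the other pathway genes 30 could be tested in each comparison with day 7 spheres. Against adult LG 7 were higher and 7 lower, with a median of -0.30 beside -0.082 over all genes, and against E17.5 LG 6 were higher and 11 lower, with a median of -0.23 beside -0.099. Dlk1, Dll4, Mfng, Dtx1 and Heyl averaged under 0.5 FPKM at day 7 and were tested, where they were, only through tissue. Neurl1a averaged 0.402 FPKM in adult LG and was tested against it only through the spheres. The changes of these genes are given as a description. The shares called, 46.7% against adult LG and 56.7% against E17.5 LG, stand beside 35.2% and 47.6% of all genes. The rises against adult LG were led by Neurl1a (2.86 ± 0.30), Aph1b (2.02 ± 0.38) and the receptor-cleaving proteases Adam10 (1.78 ± 0.24) and Adam17 (1.48 ± 0.21). After Mfng and Dll4 the falls were led by Dtx1 (-2.08 ± 0.36) and Psen2 (-1.90 ± 0.30). Against E17.5 LG Dlk1 fell furthest (-8.42 ± 0.21) and Heyl was at -2.004 ± 0.13, while Adam10 (1.19 ± 0.17) and Dtx3l (1.05 ± 0.23) were higher.

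The last question was how the genes change while spheres are cultured from day 5 to day 14. Notch1, Notch4, Jag1, Jag2, Hey1 and Nrarp passed the filter over the 11 sphere libraries, and none of the 6 had a slope over culture days past the threshold, where 2.14% of 15584 genes did (334 genes by limma, 336 by limma-voom, and 2965 or 19.0% at an unadjusted p under 0.05). The replicate numbers pair the sphere libraries, as set out with the processing, and with the number as a block 1 of the 6 passed, Notch4, where 5.02% of all genes did. Between day 14 and day 7 none of 5 genes passed, and no gene of 15744 did by limma or by limma-voom (0.0%, with 1557 or 9.89% at an unadjusted p under 0.05). With the block the count between these days was 0 as well.

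The sphere levels of Notch4 in FPKM were 0.350 and 0.165 (day 5), 0.295, 0.190 and 0.609 (day 7), 0.575, 0.660 and 0.344 (day 10) and 1.09, 2.29 and 0.761 (day 14). The group mean was higher at each later day, from 0.257 to 1.38, as it was for 12.5% of genes, and the day 14 libraries lay above all others. The slope was 0.098 ± 0.025 per day on the log2(FPKM + 1) scale (adjusted p = 0.0653). With the replicate block it was 0.10 (adjusted p = 0.0498), by limma-voom 0.27 (adjusted p = 0.0391) and by limma-voom with the block 0.28 (adjusted p = 0.0211), where 7.14% of all genes passed.

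The slope of Notch4 leaned on replicate 2, which had the highest value at day 14. Without day 14 replicate 2 the slope was 0.067 (adjusted p = 0.11), and without the libraries of replicate number 2 at all days it was 0.055 (adjusted p = 0.266). Between day 14 and day 7 the fold change was 0.76 ± 0.27 (adjusted p = 0.47), with groups that did not overlap, as for 17.4% of genes in either direction. The summed endothelial markers were at 0.0714, 0.152 and 0.141 FPKM in the same 3 libraries. Even at day 14 Notch4 was below its level in every tissue library.

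The sphere levels of Notch1 in FPKM were 0.677 and 1.19 (day 5), 0.342, 0.889 and 0.549 (day 7), 0.659, 0.265 and 0.447 (day 10) and 0.221, 0.434 and 0.414 (day 14). The mean was lower at each later day, from 0.934 to 0.356, as it was for 13.2% of genes, but the days overlapped. The slope was -0.048 ± 0.019 per day (adjusted p = 0.208), and limma-voom gave -0.13 (adjusted p = 0.188).

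The ligands had no slope that passed. Jag1 had 1.29 and 0.531 FPKM (day 5), from 2.61 to 3.2 (day 7), from 1.81 to 1.90 (day 10) and from 1.68 to 3.02 (day 14), with a slope of 0.041 ± 0.036 (adjusted p = 0.572) that became -0.031 with days 7, 10 and 14 alone. The sphere levels of Jag2 in FPKM were 49.6 and 72.5 (day 5), 44.5, 74.7 and 25.5 (day 7), 23.5, 69.0 and 30.6 (day 10) and 19.2, 71.6 and 36.1 (day 14). Its slope was -0.064 ± 0.058 (adjusted p = 0.58), with an interval of -0.19 to 0.062. Replicate 1 of Jag2 was at 49.6 on day 5 and 19.2 on day 14, and replicate 3 at 25.5 on day 7 and 36.1 on day 14, so that these 2 differed in direction.

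Among the targets, the levels of Hey1 in FPKM were 6.12 and 2.85 (day 5), 9.03, 1.72 and 10.98 (day 7), 7.82, 3.14 and 11.9 (day 10) and 26.1, 3.34 and 13.0 (day 14). The mean was higher at each later day, with overlapping libraries, and the slope was 0.12 ± 0.077 (adjusted p = 0.42). The sphere levels of Nrarp in FPKM were 8.52 and 40.5 (day 5), 13.3, 41.4 and 22.3 (day 7), 7.00, 50.3 and 12.4 (day 10) and 11.1, 10.5 and 12.4 (day 14). The slope was -0.099 ± 0.075 (adjusted p = 0.502).

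Between day 14 and day 7 the libraries of Nrarp did not overlap, with a fold change of -0.97 ± 0.38 (adjusted p = 0.493) and an interval of -1.90 to -0.047. Without the replicate number 2 libraries it was -0.52. The difference of Nrarp between day 10 and day 14 lay in replicate 2, from 50.3 to 10.5 FPKM, while replicates 1 and 3 went from 7.00 to 11.1 and from 12.4 to 12.4. Of 24 other pathway genes tested for a slope none passed, and 2 did with the block, under which 5.02% of all genes passed. Rbpj had the mean 4.09 FPKM at day 5 and 9.38 at day 14 (0.11 ± 0.028 per day, adjusted p = 0.0695).

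The spread of Jag2, Hey1 and Nrarp within a day followed the replicate number. The library with number 2 had the highest Jag2 at all 4 days, as did 12.1% of 15584 genes, and the lowest Hey1 at all 4 days, as did 10.2%. It also had the highest Nrarp at days 5, 7 and 10, but the lowest at day 14. Jag2 in these libraries stayed between 69.0 and 74.7 FPKM. At days 7, 10 and 14 the summed epithelial markers were 595, 645 and 615 FPKM in the number 2 libraries and at least 1437 in the others, and the summed basal and myoepithelial markers, over 6 genes, were highest in the number 2 libraries at days 5, 7 and 10 (5822, 4145 and 2837 FPKM) and lowest at day 14 (1594, against 3109 and 3197), the same days on which Nrarp was highest and lowest in these libraries. At day 10 this sum was only slightly above the 2811 and 2515 of the others. The sum came mostly from Krt17, with means of 2557 to 4676 FPKM over the days, and Krt14 had another order. In the number 2 libraries Krt14 was highest at days 7, 10 and 14 (17.8, 15.7 and 8.18 FPKM). At day 5 it stood at 11.6 against 11.9. The part of these marker differences was not tested.

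**Figure D5:**
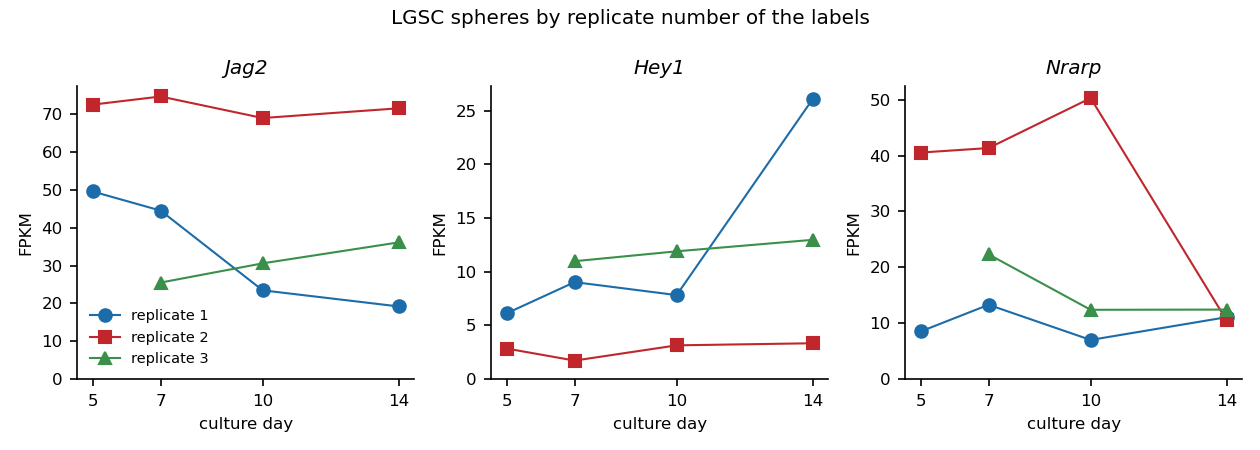
FPKM of Jag2, Hey1 and Nrarp (vertical, linear from 0) against culture day (horizontal) for passage 2 spheres, with 1 line for each replicate number of the labels and no day 5 library for replicate 3. Replicate 2 (red) runs highest for Jag2 and lowest for Hey1 throughout, and for Nrarp it is highest until day 10 and drops to the level of the others at day 14.

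Across the 20 libraries the genes whose log2(FPKM + 1) was most like that of Notch4, Jag2, Hey1 or Nrarp were ranked by Pearson's r, with 1 FPKM as the lowest mean allowed. These correlations describe 20 libraries that share days, stages and scaling. For Notch4 they were Gimap1 (0.975), Klhl6 (0.975) and Gimap8 (0.974). For Jag2 they were Vav3 (0.939), Dok4 (0.923) and Fhdc1 (0.922). For Hey1 they were Arhgap6 (0.911), Cttnbp2 (0.904) and Rbpms (0.895), and for Nrarp Nipal4 (0.917), Mmd (0.896) and Dstn (0.881).

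Within the Notch genes the closest pair was Jag2 and Nrarp (r = 0.77), while Notch4 and Hey1 were each other's closest at 0.417. In order of the group means, Jag2 was highest at day 5 (61.1 FPKM) and lowest in adult LG (14.7), Nrarp highest at day 7 (25.7) and lowest in adult LG (3.10), Hey1 highest at E17.5 (15.4) and lowest at day 5 (4.48), and Notch4 highest in adult LG (13.9) and lowest at day 5 (0.257). In each of these orders the sphere days overlapped their neighbors, except day 14 for Notch4.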

How the data were processed

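RNA sequencing of 21 libraries was analysed: 9 of LG, 11 of passage 2 LGSC spheres and 1 of passage 10 spheres. Per the labels, mRNA was purified with poly-T beads and libraries were made with the NEBNext Ultra kit, and the submitters' processing notes name CASAVA 1.8, HISAT2 2.0.5, featureCounts 1.5.0-p3 and the build NCBIM37. Each table deposited by the authors gives a single level for a gene, taken to be FPKM from its size, its dependence on gene length and its steps, since the step from counts is not given in the sources used here. The tables hold no coordinates, and symbols, lengths and positions came from GENCODE M21 on GRCm38, which held 52403 of 52636 Ensembl identifiers.

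Reads were recovered by dividing FPKM by the value of 1 read, and 92.6% to 93.6% of values were whole to within 0.01 of a read, up to 1000 reads. In adult LG replicates 1 and 2 the recovered reads were 2.94 and 2.85 times the total to which the deposited values had been scaled, against 0.866 to 1.20 elsewhere. Tests used limma 3.58.1 (lmFit, eBayes with trend, R 4.3.3) on log2(FPKM + 1). Genes averaging 0.5 FPKM or more across the fitted libraries were tested, p-values were adjusted by Benjamini-Hochberg over all of them, and 0.05 was the threshold. A fold change on this scale understates that of genes with low FPKM. Tissue stages shared 1 fit of 9 libraries. The fits were also run on simulated data, which had the same spread setting for all genes and no pairing of replicates. That run does not bear on calls that rest on single libraries or on the replicate numbers. Alternatives were a pseudocount of 0.1, no filter, scaling to recovered reads, limma-voom on recovered reads, a replicate block, other sets of libraries and each library left out.

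Same-numbered sphere libraries deviated together (mean r of 0.371 between days 7 and 14, lowest 0.255, and 0.457 over all days, lowest 0.26), so the replicate numbers of the labels pair them. In tissue the mean r was -0.0095, so numbers there are only names. The text names all 10 Notch genes, from 47 further pathway genes the largest changes past the threshold, and the 3 genes most like Notch4, Jag2, Hey1 and Nrarp. Heyl, Dll4, Mfng and Rbpj were in places named outside this rule, after their values were seen, as were marker genes. The genes and lists were chosen with earlier results of these data known. Promoters came from RefSeq on GRCm38.p6. Joins used Python 3.11.15 with pandas 2.3.3 and numpy 2.4.6, and plots matplotlib 3.10.9. No own test was made of the passage 10 library, which has no replicate.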

Additional observations from a re-analysis of the deposited data

Results flagged for a closer look

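6 Notch genes were well above the level of the 20 other tables in the passage 10 library, which entered no test: Notch1 at 49.3 FPKM, Notch2 at 10.5, Notch3 at 28.8, Jag1 at 82.5, Dll1 at 7.99 and Hes1 at 119. Of genes at 10 FPKM or more in that library, 5 of 6 Notch genes were under 0.1 of it at day 7, beside 50.55% of all genes. In that library Hes1, Jag1 and Jag2 were the highest of the 10 genes, whereas Notch4 was the lowest at 0.115. Notch3 and Hes1 were listed at 0 in all 20 other libraries, and no gene on either strand overlaps Hes1 in GENCODE M21, nor Jag1. Overlap with the 11226 assembled loci, for which no coordinates are given, could not be checked. No group had more than 3 libraries, so single libraries were not tested for standing apart from their group.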

How the results depend on the processing

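The count of Notch genes past the threshold at E17.5 against adult LG was 2, and 1 with all 20 libraries in 1 fit. With single libraries left out it lay between 2 and 3 there, between 1 and 3 at E19.5 against adult LG, at 0 between the embryonic stages, for the slope and between day 14 and day 7, between 3 and 4 for day 7 against adult LG, and between 2 and 4 for day 7 against E17.5 LG. The slope had 0, and 1 with the replicate block, by limma-voom and by limma-voom with the block. The replicate block changed no other call of a Notch gene.

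Signs of fold changes that did not pass turned in these settings. Scaled to own reads, Notch4 was 0.12 at E17.5 and 0.42 at E19.5 against adult LG, and Hey1 was 0.67 at day 7 against adult LG. Without adult replicates 1 and 2, a setting chosen after seeing the data, Hey1 was -0.19 and -0.23 at E17.5 and E19.5. With single libraries left out, Notch4 at E19.5 against adult LG lay between -0.78 and 0.12. Between the embryonic stages Jag2 lay between -0.062 and 0.030 and Hey1 between -0.088 and 0.014. Between day 14 and day 7 Jag2 lay between -0.72 and 0.20, with 0.13 without day 7 replicate 2. At day 7 Hey1 lay between -0.75 and 0.44 against adult LG, with 0.38 without adult replicate 3, and Jag2 between -0.064 and 0.69 against E17.5 LG. With days 7, 10 and 14 alone the slope of Jag1 was -0.031. The cause was not tested.

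Scaling to own reads moved the share of higher genes among all genes called between E19.5 and E17.5 from 64.1% to 49.2%, beside the shifts against adult LG given with the results. Over all genes the slope count of 334 lay between 0 (days 7, 10 and 14 alone, and 11 without day 5 replicate 1) and 1113 (limma-voom with the block), that of E19.5 against E17.5 (323) between 50 without E17.5 replicate 1 and 2177 without adult replicates 1 and 2, that of day 14 against day 7 (0) reached 50 with all 20 libraries in 1 fit, and that of day 7 against adult LG (6238) fell to 3770 without day 7 replicate 3. Precision for Notch1, Notch2, Jag1 and Dll1 is limited by their low read counts, and Notch3 and Hes1 gave none.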
